A study of Mus musculus with 8 samples.

Results

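The 47 genes described here act in G2 and in mitosis, and they were taken by name from the 56748 gene identifiers of the count tables of mouse bone marrow-derived mast cells (BMMCs). All 47 were among the 14942 genes with enough counts to be tested, with 112 to 29838 counts per gene and library. BMMCs were grown from the bone marrow of C57BL/6 mice aged 6 to 8 weeks in medium with interleukin-3 and without added stem cell factor, and stained for FcεRIα and c-Kit. For the Mettl3-RNP libraries, cells were electroporated with Cas9 ribonucleoproteins carrying guide RNAs to Mettl3, the catalytic subunit of the enzyme that methylates adenosine (m6A) in mRNA. The Pulsed cells were electroporated without them. Both groups hold 4 libraries from 4 mice, with shared replicate numbers, and the edited cultures are mixed populations that keep some unedited cells. The cells were not stimulated, and the study followed the growth of such cultures by BrdU incorporation, which raises the question of how cell cycle transcripts differed between the groups. Levels are given in CPM, counts scaled to 1000000 per library after scaling for library composition.

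Cells pass from G2 into mitosis when cyclin B binds Cdk1 and the Cdc25 phosphatases remove the inhibitory phosphates from it. Polo-like and Aurora kinases then build the spindle, the spindle checkpoint holds anaphase until every kinetochore is attached, and the anaphase-promoting complex with Cdc20 starts the destruction of securin and cyclin B. Transcripts of these genes are made mainly in G2 and M and are low in cells that do not divide, so that in a bulk culture their level follows the share of dividing cells as well as the RNA per cell. Fewer cycling cells and less of a transcript per cell cannot be told apart in these libraries.

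Many promoters of such genes carry a cell cycle homology region (CHR), read here as TTTGAA on either strand, and CCAAT boxes, read as CCAAT on either strand. The first is bound by the DREAM and B-Myb/MuvB complexes and the second by NF-Y. RefSeq promoter windows, 250 bases before to 50 bases after the annotated start on GRCm38.p6, were given for 39 of the 47 members (42 windows), and not for Aurkb, Ccna2, Cdc25c, Foxm1, Incenp, Kif20a, Smc4 and Tpx2. TTTGAA was in the windows of 29 of the 39 (74.4%), against 17.9% of all 32851 windows and 14.8% of the 10164 tested genes with a window. Within 50 bases of the start it was found for 25 of 39 members (64.1%), against 4.94% of all windows. The variant TTTAAA, whose matches cannot overlap those of the CHR, was found for 10 of 39 (25.6%) against 13.2% of all windows. CCAAT was found for 30 of 39 (76.9%), against 37.4% of all windows and 43.1% of tested genes. Windows of 8 members, from 200 bases before to 30 bases after the start, are printed to show how these letters lie in genes that moved together between libraries and in Pttg1, which did not move with them. Capitals mark the CHR, its variant and the CCAAT box on either strand, and all windows are written 5′ to 3′ on the gene's strand.
Cdk1 (chr10:69352883-69353112, minus strand): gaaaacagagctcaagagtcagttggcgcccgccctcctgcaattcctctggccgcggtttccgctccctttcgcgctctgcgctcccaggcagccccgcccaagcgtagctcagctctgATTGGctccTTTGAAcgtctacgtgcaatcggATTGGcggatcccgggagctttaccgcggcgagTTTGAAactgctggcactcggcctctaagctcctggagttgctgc
Ccnb2 (chr9:70421525-70421754, minus strand): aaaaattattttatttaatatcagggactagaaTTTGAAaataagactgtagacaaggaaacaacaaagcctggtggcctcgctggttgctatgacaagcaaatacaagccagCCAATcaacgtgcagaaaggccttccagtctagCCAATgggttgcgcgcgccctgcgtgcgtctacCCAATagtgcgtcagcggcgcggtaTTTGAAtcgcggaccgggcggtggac
Cdc20 (chr4:118437314-118437543, minus strand): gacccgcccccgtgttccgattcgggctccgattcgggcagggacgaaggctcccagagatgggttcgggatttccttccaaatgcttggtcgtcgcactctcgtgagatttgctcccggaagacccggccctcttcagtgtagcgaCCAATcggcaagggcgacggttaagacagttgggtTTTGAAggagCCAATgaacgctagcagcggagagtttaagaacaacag
Top2a (chr11:99024160-99024389, minus strand): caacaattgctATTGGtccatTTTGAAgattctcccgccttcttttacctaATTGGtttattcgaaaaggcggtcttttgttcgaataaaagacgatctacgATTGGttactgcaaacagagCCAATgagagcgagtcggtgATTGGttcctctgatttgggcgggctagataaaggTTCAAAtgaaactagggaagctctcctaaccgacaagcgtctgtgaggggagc
Cenpf (chr1:189688057-189688286, minus strand): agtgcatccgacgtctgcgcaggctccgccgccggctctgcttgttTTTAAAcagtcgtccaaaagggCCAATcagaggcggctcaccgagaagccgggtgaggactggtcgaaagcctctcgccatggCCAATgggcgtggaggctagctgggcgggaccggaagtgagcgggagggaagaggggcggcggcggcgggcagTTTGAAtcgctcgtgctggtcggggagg
Mki67 (chr7:135716350-135716579, minus strand): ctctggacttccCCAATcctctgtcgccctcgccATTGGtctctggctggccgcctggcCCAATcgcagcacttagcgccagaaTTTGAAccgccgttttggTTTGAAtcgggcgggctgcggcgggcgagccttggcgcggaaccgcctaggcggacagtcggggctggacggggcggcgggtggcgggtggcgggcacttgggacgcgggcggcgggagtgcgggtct
Cenpe (chr3:135212363-135212592, plus strand): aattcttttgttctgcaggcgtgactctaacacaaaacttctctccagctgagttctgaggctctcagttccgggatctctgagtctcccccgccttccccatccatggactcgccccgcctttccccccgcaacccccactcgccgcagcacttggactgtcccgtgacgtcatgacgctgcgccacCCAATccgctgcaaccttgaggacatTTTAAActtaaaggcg
Pttg1 (chr11:43425952-43426181, minus strand): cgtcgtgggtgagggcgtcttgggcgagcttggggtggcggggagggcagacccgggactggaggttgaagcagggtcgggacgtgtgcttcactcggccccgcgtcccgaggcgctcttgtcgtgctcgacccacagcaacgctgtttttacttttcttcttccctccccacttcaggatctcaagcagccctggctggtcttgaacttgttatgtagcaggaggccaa
Cdk1, Ccnb2, Cdc20, Top2a and Cenpf hold a TTTGAA that begins between 23 bases before and 5 bases after the start. In Mki67 both copies lie farther upstream, beginning at -116 and -98, next to 3 CCAAT boxes. Cenpe has the variant in place of the CHR, beginning at base 15 of the transcript, and a CCAAT box beginning at -12, and Pttg1 has neither the CHR, its variant nor a CCAAT box. A match is a description of the letters and not of binding.

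**Figure D1:**
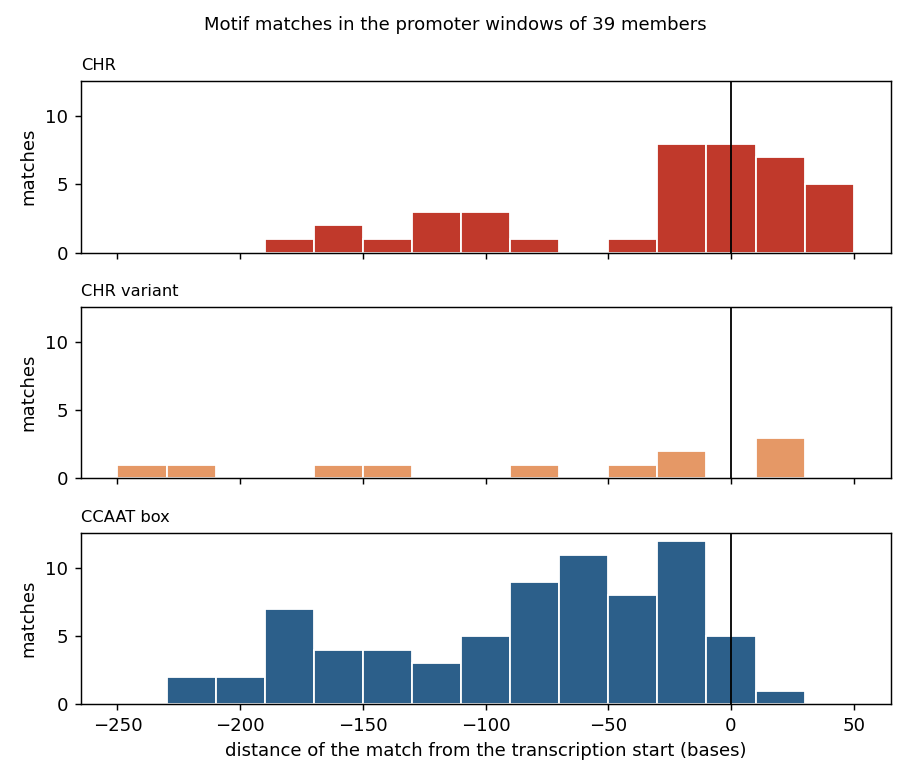
Matches per bin of 20 bases to the CHR, its variant and the CCAAT box, on either strand, against distance in bases from the transcription start, in the 42 windows of 39 members. CHR matches gather around the start and CCAAT boxes lie mostly upstream of it.

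The 8 libraries held 32643260 to 45324826 counts. Mettl3 itself was measured at 12.3, 9.18, 4.88 and 9.21 CPM in Mettl3-RNP replicates 1 to 4 and 25.9, 24.5, 11.2 and 26.5 CPM in Pulsed replicates 1 to 4. It was lower in every pair, with a fitted log2 fold change of -1.30 ± 0.11 (SE, n = 4 pairs) at an edgeR adjusted p of 0.00543. Levels of replicate 3 were the lowest of both groups. All 10 mast cell markers were detected (42036 to 56062 CPM summed per library in Mettl3-RNP and 45749 to 62621 CPM in Pulsed), with Cpa3 lower (-0.37, edgeR adjusted p 0.0328), and no neutrophil marker passed 0.201 CPM in any library. Summed basophil markers were 1795 to 2420 CPM in Mettl3-RNP and 2244 to 3322 CPM in Pulsed, with Il18rap (-0.79, edgeR adjusted p 0.0324) and Ifitm1 (-0.60, 0.0471) lower and Cd200r3 at 0.25 (0.151). Ifitm1 and Cd200r3 made up most of each sum. Mcpt8 and Prss34 reached at most 4.03 and 1.74 CPM in any library, with fitted values of -0.42 (edgeR adjusted p 0.267) and -0.68 (0.299). The 7 macrophage markers summed to 5.46 to 29.1 CPM in Mettl3-RNP and 5.70 to 10.4 CPM in Pulsed, with Adgre1 lower (-1.13, edgeR adjusted p 0.0435) and Cd68, which made up most of the sum, at 1.63 (0.142) and at 23.8 against 3.16 CPM in pair 2 and 28.3 against 3.26 CPM in pair 4. The 7 erythroid markers summed to 9.16 to 14.8 CPM in Mettl3-RNP and 15.4 to 28.9 CPM in Pulsed, without overlap, with Car2 lower (-0.95, edgeR adjusted p 0.0272). The part of other cells in the members' levels was not tested.

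The members differed far more between replicate numbers than between the groups. Their summed level was 1473 and 1380 CPM in the Mettl3-RNP and Pulsed libraries of replicate 1, against 2121 to 3978 CPM in the other 6 libraries. For 42 of the 47 the mean of the 2 libraries of a number was lowest in replicate 1, and for 40 it was highest in replicate 4. The highest replicate mean was 1.34 to 4.22 times the lowest, with a median of 3.10 over the members and of 1.83 over all tested genes. In the same edgeR fit, a test of the replicate number passed an adjusted p of 0.05 for 46 of 47 members (all but Kif23, at 0.0501), where 53.9% of all tested genes did. Both replicate 1 libraries lay below the other 6 for 38 of 47 members, against 14% of all tested genes. These counts were made after the values had been seen, and whether the numbers also mark a day of culture or of library preparation is not given in the sources used here.

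**Figure D2:**
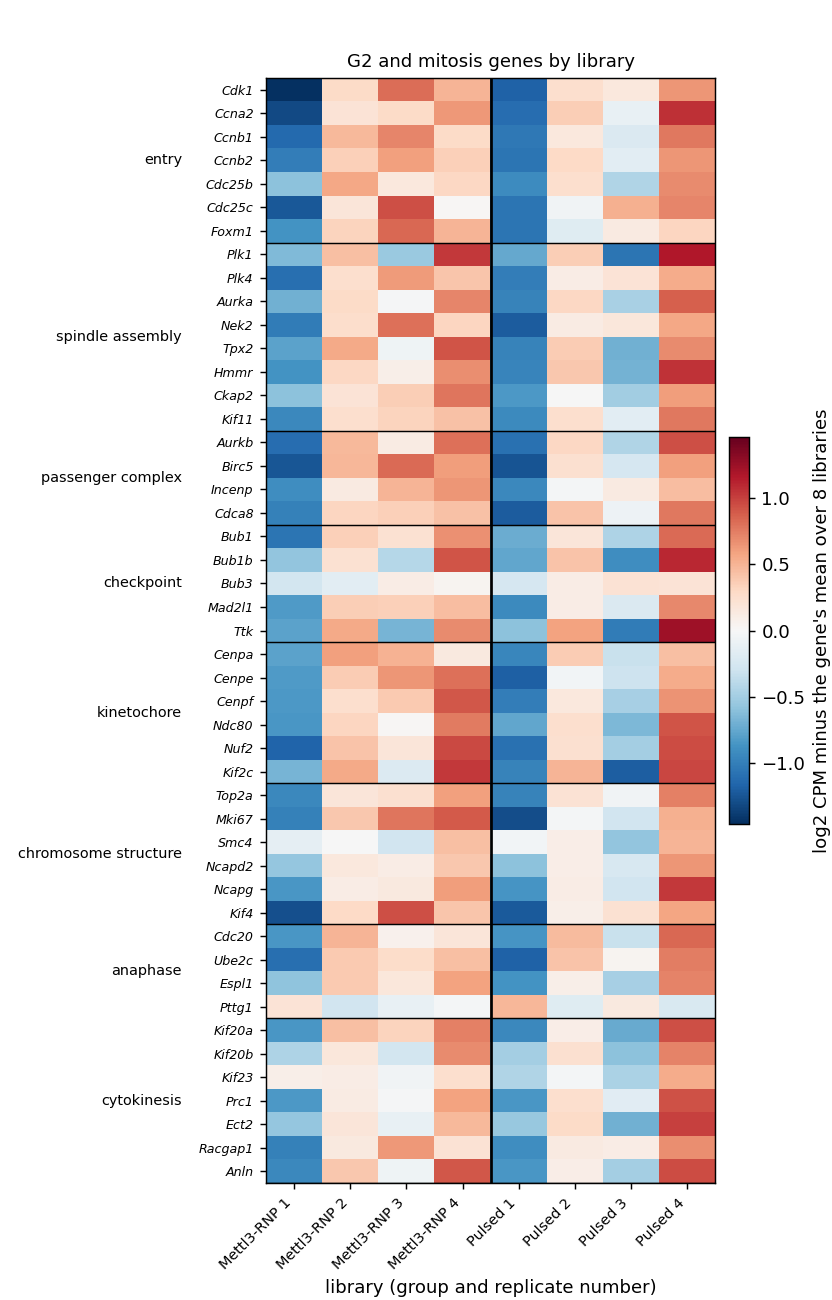
Level of each of the 47 members (rows, by role) in each library (columns, group and replicate number), as log2 CPM minus the gene's mean over the 8 libraries. Both replicate 1 columns are blue for nearly all members and both replicate 4 columns red, while Bub3, Smc4, Kif23 and Pttg1 are pale.

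Between the groups, 0 of 47 members had both an edgeR adjusted p of 0.05 or less and a change of 1.5-fold or more, where 2.06% of all tested genes did. At the adjusted p alone 0 members were higher and 0 lower, against 2.35% and 1.39% of all tested genes. An unadjusted p under 0.05 was reached by 7 members that were higher (Mki67, Cenpe, Foxm1, Tpx2, Ckap2, Cenpf and Incenp) and by 0 that were lower, against 11.8% and 10.7% of tested genes. In 4 of 4 pairs 9 members were higher, the same 7 with Birc5 and Kif2c, and 1, Bub3, was lower, against 15.7% and 16% of all genes. The groups overlapped for every member, where 2.03% of tested genes lay wholly higher and 1.2% wholly lower in Mettl3-RNP. The share of members higher in all pairs (9 of 47) was thus close to the share among all genes.

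The median fitted log2 fold change of the members was 0.13, with 36 of 47 above 0, beside a median of -0.0013 over all tested genes, with 7443 of 14942 above 0. The members' differences were largest in pair 3. The median difference was 0.035 in pair 1, 0.087 in pair 2, 0.56 in pair 3 and -0.17 in pair 4, and 29, 32, 45 and 11 of the 47 members were higher in these pairs. Of all 14942 tested genes, 6978, 7519, 7006 and 7770 were higher in pairs 1 to 4. Pair 3 gave the largest of the 4 differences for 44 members and pair 4 the smallest for 34. Without replicate 3 the median was -0.03 and 20 of 47 were above 0, and without replicate 4 the median was 0.22 and 45 were above 0. Of the 9 members higher in all pairs, leaving out replicate 3 lowered the fitted value by more than 1.5 times for Ckap2 (to 0.20), Cenpf (0.17), Tpx2 (0.20), Birc5 (0.09) and Kif2c (0.13). The medians of the 8 role groups without replicate 3 were -0.10 to 0.085. The 95% interval of the fold change lay within 1.5-fold in either direction for 37 of 47 members, and no upper bound passed 1.79-fold or lower bound fell under 0.716-fold.

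**Figure D3:**
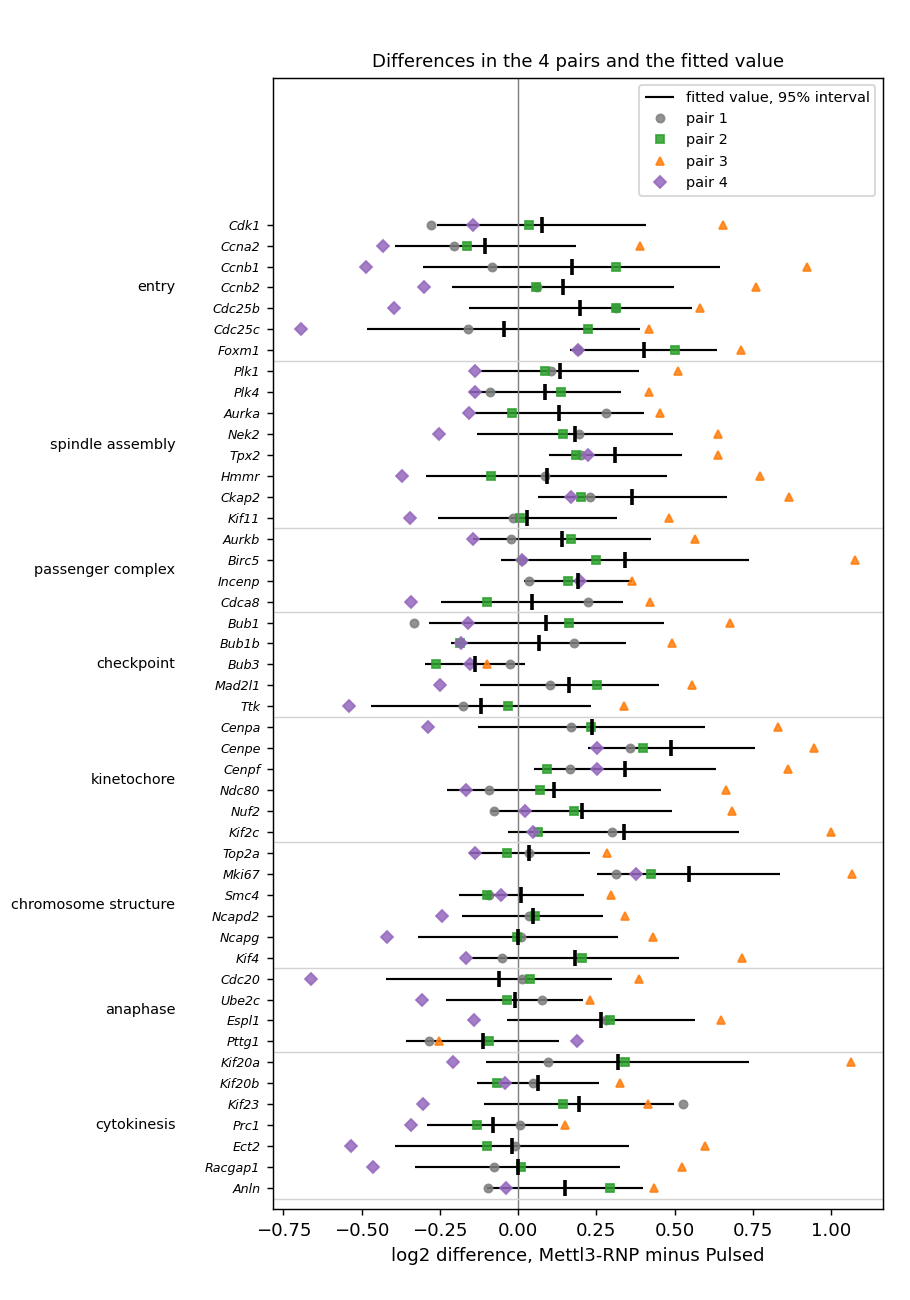
Log2 difference between Mettl3-RNP and Pulsed for each member in each of the 4 pairs (symbols), with the fitted log2 fold change (black tick) and its 95% interval (line). Pair 3 lies to the right for 44 of 47 members and pair 4 to the left for most, and only 7 intervals, those of Mki67, Cenpe, Foxm1, Tpx2, Ckap2, Cenpf and Incenp, leave out 0.

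The 7 genes of entry into mitosis had a median log2 fold change of 0.14, with 5 above 0, and were all lowest in replicate 1. The median turned to -0.09, with 2 of 7 above 0, without replicate 3. Cdk1 (chr10:69170976-69236595 on GRCm39), the kinase that drives mitosis, was at 13.3, 44.6, 64.6 and 51.8 CPM in Mettl3-RNP replicates 1 to 4 and 16.2, 43.6, 40.9 and 57.3 CPM in Pulsed replicates 1 to 4. Both replicate 1 libraries were low, and the Mettl3-RNP library was the higher one in pairs 2 and 3 and the lower one in pairs 1 and 4. Its log2 fold change was 0.07 ± 0.14 (SE, n = 4 pairs) at an edgeR adjusted p of 0.81.

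Ccnb1 (chr13:100915153-100923116), cyclin B1, was at 9.42, 28.6, 33.7 and 25.0 CPM in Mettl3-RNP replicates 1 to 4 and 9.99, 23.0, 17.8 and 35.0 CPM in Pulsed replicates 1 to 4. The pairs split in the same way, from a log2 difference of 0.92 in pair 3 to -0.49 in pair 4, and the fitted value was 0.17 ± 0.20 (SE, n = 4 pairs) at an edgeR adjusted p of 0.683. Ccna2 (chr3:36619014-36626299), cyclin A2, which acts in S phase and G2, was at 27.7, 79.6, 84.4 and 108 CPM in Mettl3-RNP replicates 1 to 4 and 32.0, 89.2, 64.4 and 145 CPM in Pulsed replicates 1 to 4. It was lower in all pairs but the third, with a fitted value of -0.10 ± 0.13 (SE, n = 4 pairs) at an edgeR adjusted p of 0.685. Ccnb2, the second B-type cyclin, and the phosphatases Cdc25b and Cdc25c had fitted values of 0.14, 0.20 and -0.05.

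Foxm1 (chr6:128339518-128353147), the transcription factor that drives many G2 and mitosis genes, was at 26.4, 60.8, 86.8 and 68.5 CPM in Mettl3-RNP replicates 1 to 4 and 23.1, 43.0, 52.98 and 60.1 CPM in Pulsed replicates 1 to 4. The Mettl3-RNP library was the higher one in every pair, by 0.19 to 0.71 on the log2 scale, and the groups overlapped, with replicate 1 low in both. The fitted log2 fold change was 0.40 ± 0.10 (SE, n = 4 pairs) at an edgeR adjusted p of 0.0697. Its level per kb of transcript in Pulsed was 8.78 CPM per kb, near the median of 10.4 over the members.

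The 8 genes of spindle assembly were all above 0 in the fit, with a median of 0.13 and values from 0.03 (Kif11, the motor that pushes spindle poles apart) to 0.36. Without replicate 3 the median was 0.015 and 5 of 8 were above 0, with Plk4 at -0.03, Hmmr at -0.13 and Kif11 at -0.12. Plk1 (chr7:121758646-121769108), the polo-like kinase of mitotic entry and spindle assembly, was at 17.3, 36.7, 18.5 and 55.1 CPM in Mettl3-RNP replicates 1 to 4 and 16.1, 34.6, 13.0 and 60.7 CPM in Pulsed replicates 1 to 4. It differed from Cdk1 in that replicate 3 was as low as replicate 1, and replicate 4 was highest in both groups. Its fitted value was 0.13 ± 0.11 (SE, n = 4 pairs) at an edgeR adjusted p of 0.534.

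Ckap2 (chr8:22658164-22675852), a microtubule-binding protein of the spindle, was at 12.2, 21.3, 23.7 and 31.9 CPM in Mettl3-RNP replicates 1 to 4 and 10.4, 18.5, 13.0 and 28.4 CPM in Pulsed replicates 1 to 4. It was higher in all 4 pairs, with a difference of 0.86 in pair 3 and of 0.17 to 0.23 in the others, and the fitted value was 0.36 ± 0.13 (SE, n = 4 pairs) at an edgeR adjusted p of 0.149. Tpx2, which activates Aurora A on spindle microtubules, was also higher in all 4 pairs (0.19 to 0.64), with a fitted value of 0.31 ± 0.09 (SE, n = 4 pairs) at an edgeR adjusted p of 0.10. Aurka, the Aurora A kinase, and Plk4, the kinase of centriole duplication, had fitted values of 0.13 and 0.09, and the centrosome kinase Nek2 and the hyaluronan-mediated motility receptor Hmmr had 0.18 and 0.09.

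The chromosomal passenger complex, which corrects attachments of chromosomes to the spindle, had fitted values of 0.04 to 0.34 for its 4 genes, of which 2 were above 0 without replicate 3. Aurkb (chr11:68936467-68944764), its kinase, was at 9.50, 28.6, 22.4 and 35.9 CPM in Mettl3-RNP replicates 1 to 4 and 9.65, 25.5, 15.2 and 39.6 CPM in Pulsed replicates 1 to 4. Replicate 1 was about as low in both groups, and the pairs went either way, and the fitted value was 0.14 ± 0.12 (SE, n = 4 pairs) at an edgeR adjusted p of 0.558. Birc5, which encodes survivin, had the largest single difference of any member, 1.08 in pair 3, beside 0.01 to 0.25 in the other pairs. Incenp, the scaffold of the complex, was higher in 4 of 4 pairs by 0.04 to 0.37, with a fitted value of 0.19 ± 0.07 (SE, n = 4 pairs) at an edgeR adjusted p of 0.184.

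Among the 5 genes of the spindle checkpoint, the median was 0.07, and -0.10 without replicate 3, and no gene was higher in all pairs. Bub1b (chr2:118428684-118472076), which encodes the checkpoint inhibitor BubR1, was at 22.2, 38.8, 24.9 and 62.5 CPM in Mettl3-RNP replicates 1 to 4 and 19.6, 44.2, 17.7 and 70.9 CPM in Pulsed replicates 1 to 4. Replicates 1 and 3 were low in both groups, and the fitted value was 0.07 ± 0.12 (SE, n = 4 pairs) at an edgeR adjusted p of 0.803. Ttk (chr9:83703392-83755037), the checkpoint kinase also called Mps1, was at 4.58, 11.5, 4.92 and 12.7 CPM in Mettl3-RNP replicates 1 to 4 and 5.18, 11.7, 3.88 and 18.5 CPM in Pulsed replicates 1 to 4. It was lower in all pairs but the third, with a fitted value of -0.12 ± 0.15 (SE, n = 4 pairs) at an edgeR adjusted p of 0.70.

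Bub3 (chr7:131161880-131178553), which carries Bub1 and BubR1 to kinetochores, was at 79.9, 86.7, 104 and 99.4 CPM in Mettl3-RNP replicates 1 to 4 and 81.4, 104, 112 and 111 CPM in Pulsed replicates 1 to 4. It was nearly level, its highest replicate mean being 1.34 times the lowest, and it was the 1 member lower in every pair, by 0.03 to 0.26. Its fitted value of -0.14 ± 0.07 (SE, n = 4 pairs) at an edgeR adjusted p of 0.291 was the smallest of the 47. Mad2l1, the Mad2 protein that blocks Cdc20, and Bub1, the kinase that marks centromeres, had fitted values of 0.16 and 0.09.

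The 6 kinetochore genes had the highest median of the role groups, 0.29, with all 6 above 0 and 3 higher in 4 of 4 pairs. Without replicate 3 the median was 0.085 and 5 of 6 were above 0, with Ndc80 at -0.07. Cenpe (chr3:134918298-134979372), the kinesin that moves chromosomes to the metaphase plate, was at 33.5, 76.6, 92.9 and 103 CPM in Mettl3-RNP replicates 1 to 4 and 26.1, 58.0, 48.2 and 86.8 CPM in Pulsed replicates 1 to 4. The Mettl3-RNP library was higher in each pair, by 0.36, 0.40, 0.95 and 0.25, and the fitted value was 0.49 ± 0.12 (SE, n = 4 pairs) at an edgeR adjusted p of 0.0607. Cenpf (chr1:189372752-189420315), a large protein of the outer kinetochore, was at 39.7, 84.2, 92.2 and 133 CPM in Mettl3-RNP replicates 1 to 4 and 35.4, 79.1, 50.7 and 111 CPM in Pulsed replicates 1 to 4. It was higher in each pair, by 0.17, 0.09, 0.86 and 0.25, with a fitted value of 0.34 ± 0.13 (SE, n = 4 pairs) at an edgeR adjusted p of 0.159. Kif2c, a kinesin that takes microtubules apart, was higher by 1.00 in pair 3 and by 0.05 to 0.30 in the others, and Cenpa, Nuf2 and Ndc80, the centromeric histone and a pair of subunits of the microtubule-binding Ndc80 complex, had fitted values of 0.23, 0.20 and 0.11.

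The 6 genes of chromosome structure had a median of 0.04, with 5 above 0, and of -0.05, with 1 above 0, without replicate 3. Mki67 (chr7:135291513-135318299) encodes Ki-67, the coat protein of mitotic chromosomes that is used as a marker of proliferating cells. It was at 231, 601, 788 and 850.4 CPM in Mettl3-RNP replicates 1 to 4 and 186, 448, 376 and 654 CPM in Pulsed replicates 1 to 4. The Mettl3-RNP library was higher in every pair, yet both replicate 1 libraries lay below all others. Its fitted value of 0.54 ± 0.13 (SE, n = 4 pairs) at an edgeR adjusted p of 0.0577 was the largest of the 47 and corresponds to 1.46-fold (95% interval 1.19 to 1.79). Summed over the other 46 members, the levels were 1242, 2444, 2449 and 3019 CPM in Mettl3-RNP and 1194, 2344, 1745 and 3324 CPM in Pulsed. In pair 4 the sum was lower in Mettl3-RNP both without Mki67 and with it (3869 against 3978 CPM).

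Top2a (chr11:98883769-98915062), the topoisomerase that untangles sister chromatids, was at 101, 219, 228 and 292 CPM in Mettl3-RNP replicates 1 to 4 and 98.6, 225, 187 and 321 CPM in Pulsed replicates 1 to 4. The groups followed each other closely apart from replicate 3, and the fitted value was 0.04 ± 0.08 (SE, n = 4 pairs) at an edgeR adjusted p of 0.842. Its level per kb of transcript in Pulsed (39.6 CPM per kb) was near that of Mki67 (40.5), and only Ube2c (67.7) was higher among the members. The condensin subunits Smc4, Ncapd2 and Ncapg had fitted values of 0.01, 0.05 and -0.00013, and Kif4, the chromosome-bound kinesin, had 0.18. Smc4 was among the least variable members, with a fold of 1.86 between its highest and lowest replicate means.

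**Figure D4:**
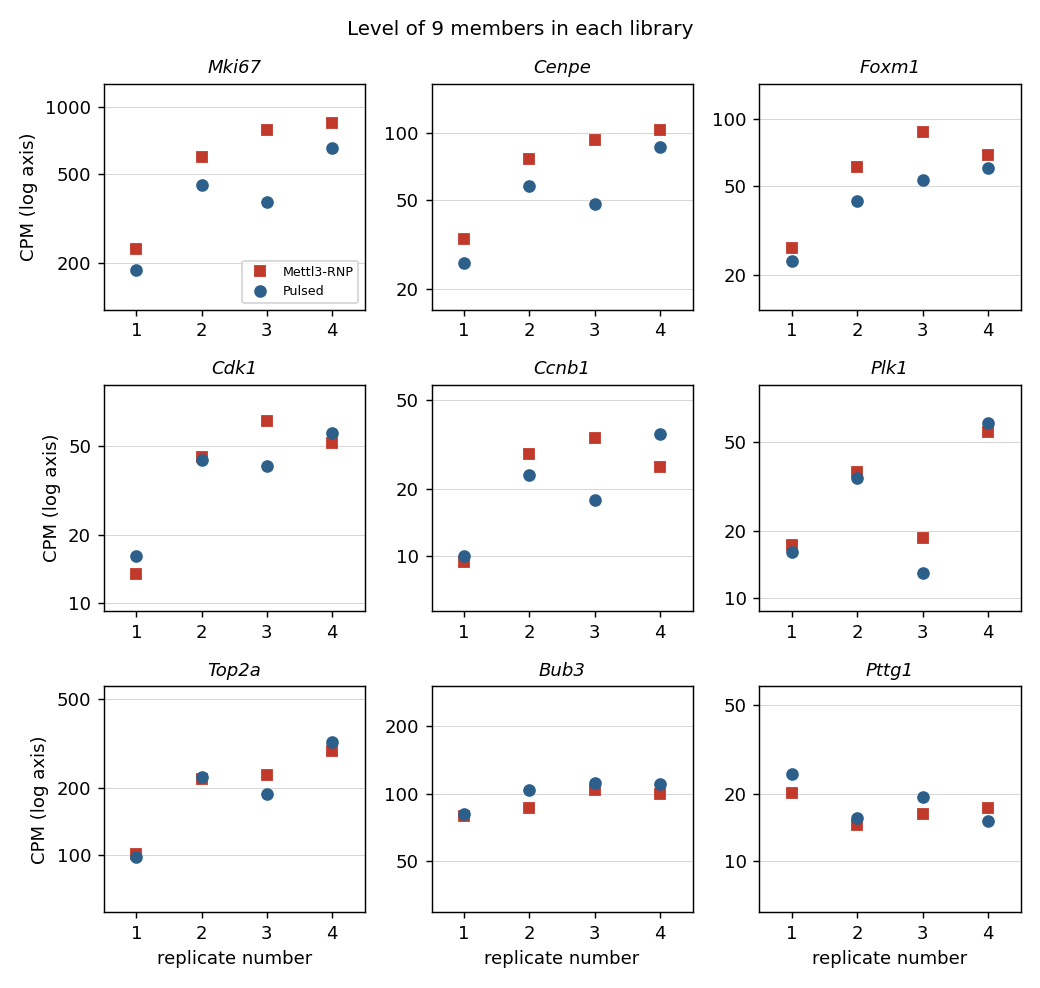
CPM on a log axis of 9 members in the 4 Mettl3-RNP libraries (squares) and the 4 Pulsed libraries (circles), by replicate number; each panel spans the same fold range. Mki67, Cenpe and Foxm1 have the square above the circle in every replicate number, while Cdk1, Ccnb1, Plk1 and Top2a have the square on either side of the circle and low values in replicate 1, and Bub3 and Pttg1 are nearly level.

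Of the 4 genes of anaphase onset, 1 had a fitted value above 0, Espl1 (0.27), the separase that cuts cohesin. Cdc20, the activator of the anaphase-promoting complex (APC/C), and its ubiquitin-conjugating enzyme Ube2c had -0.06 and -0.01. Pttg1 (chr11:43311071-43321000), securin, the inhibitor of separase, was at 20.1, 14.5, 16.3 and 17.2 CPM in Mettl3-RNP replicates 1 to 4 and 24.5, 15.5, 19.4 and 15.1 CPM in Pulsed replicates 1 to 4. It ran against the other members in being highest in replicate 1, in both groups, and its fitted value was -0.11 ± 0.11 (SE, n = 4 pairs) at an edgeR adjusted p of 0.591.

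The 7 cytokinesis genes had a median of 0.06, with 4 above 0 and none higher in all pairs, and of -0.02, with 3 above 0, without replicate 3. Prc1 (chr7:79944168-79966011), which bundles microtubules of the central spindle, was at 31.5, 61.1, 55.7 and 84.5 CPM in Mettl3-RNP replicates 1 to 4 and 31.3, 66.9, 50.1 and 107.1 CPM in Pulsed replicates 1 to 4. It had a fitted value of -0.08 ± 0.09 (SE, n = 4 pairs) at an edgeR adjusted p of 0.658, and its pairs ran from 0.15 in pair 3 to -0.34 in pair 4. Kif20a and Kif20b, kinesins of the central spindle, had fitted values of 0.32 and 0.06, and the Kif20a difference was 1.06 in pair 3 and -0.21 in pair 4. Kif23 and Racgap1, which form centralspindlin, had 0.19 and -0.0015, and Ect2, which they recruit to the central spindle, and Anln, the anillin of the contractile ring, had -0.02 and 0.15.

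The call changed with the test for a few members. With a DESeq2 Wald test 4 members passed an adjusted p of 0.05 as higher (Mki67 0.000383, Cenpe 0.0026, Foxm1 0.0105 and Tpx2 0.0294), where 7.19% of the genes given an adjusted p did. With limma-voom 1 did (Mki67, adjusted p 0.0486), against 2.67% of genes. With every gene that had a count in the edgeR fit, 3 did (Mki67, Cenpe and Foxm1), against 1.9%, and the same 3 did with genes of at least 10 counts in every sample, against 4.69%. Leaving out any 1 replicate number kept all 3 above an edgeR adjusted p of 0.05, and leaving out replicate 3 lowered Mki67 to 0.37 and Cenpe to 0.33.

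Genes of mitosis outside the 47 were counted in the same way. Of 115 listed genes of the APC/C, kinetochore, cohesin and condensin, spindle and cytokinesis and mitotic regulation, 4 were higher at an edgeR adjusted p of 0.05 and 0 lower, with a median of 0.06, beside 2.35% higher and 1.39% lower over all tested genes. The 4 were Cdca5 (0.73, adjusted p 0.0498), which encodes sororin and holds sister chromatids together, Anapc15 (0.51, 0.0256), an APC/C subunit, Mis12 (0.46, 0.0307), of the kinetochore, and Cenpb (0.32, 0.0498), which binds centromeric DNA. Each was higher in 4 of 4 pairs, but with any 1 replicate number left out the adjusted p was 0.0528 to 0.313, except for Anapc15 without replicate 3 (0.0194) and Cdca5 without replicate 4 (0.0265). The 27 other spindle and cytokinesis genes had a median of 0.22 with 24 above 0 (7443 of all 14942 tested genes were above 0), and the 17 other genes of the APC/C and its regulators had -0.08 with 5 above 0. The medians of the 27 were 0.19, 0.17, 0.59 and -0.06 in pairs 1 to 4, with 12 of 27 higher in pair 4, so that pair 3 was the largest and pair 4 the smallest, as in the members. The median fold between replicate numbers was 2.90 for the former and 1.27 for the latter, beside 3.10 for the members. Of the 17, 6 differed between replicate numbers at an edgeR adjusted p of 0.05, beside 53.9% of all tested genes.

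The 39 S phase genes followed the members across libraries. Their median relative level was -0.84 and -0.61 (log2, against each gene's mean) in the 2 replicate 1 libraries and 0.52 and 0.69 in those of replicate 4, where the members had -0.85, -0.94, 0.59 and 0.73. The S phase median log2 difference was -0.18, 0.05, 0.35 and -0.20 in pairs 1 to 4, with 0 genes past an edgeR adjusted p of 0.05 and a fitted median of 0.03. The 11 tested G1 genes had -0.30 and -0.27 in replicate 1 and 0.02 and 0.12 in replicate 4, with a fitted median of -0.05. Of 22 DREAM, MuvB and E2F genes 1 passed, beside the same 2.35% higher over all tested genes, E2f2 (0.54, edgeR adjusted p 0.0398), an activator E2F, which had 0.0776 to 0.206 with any 1 replicate number left out. Of the 22, 3 were higher and 6 lower in 4 of 4 pairs, beside 15.7% and 16% of all tested genes. Fitted values of the list ran from -0.74 to 0.54, with a median of 0.02. Mybl2, the B-Myb that works with MuvB on CHR promoters, was at 5.09, 17.8, 32.4 and 19.7 CPM in Mettl3-RNP replicates 1 to 4 and 5.88, 15.2, 21.5 and 22.3 CPM in Pulsed replicates 1 to 4, low in replicate 1 like the members.

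**Figure D5:**
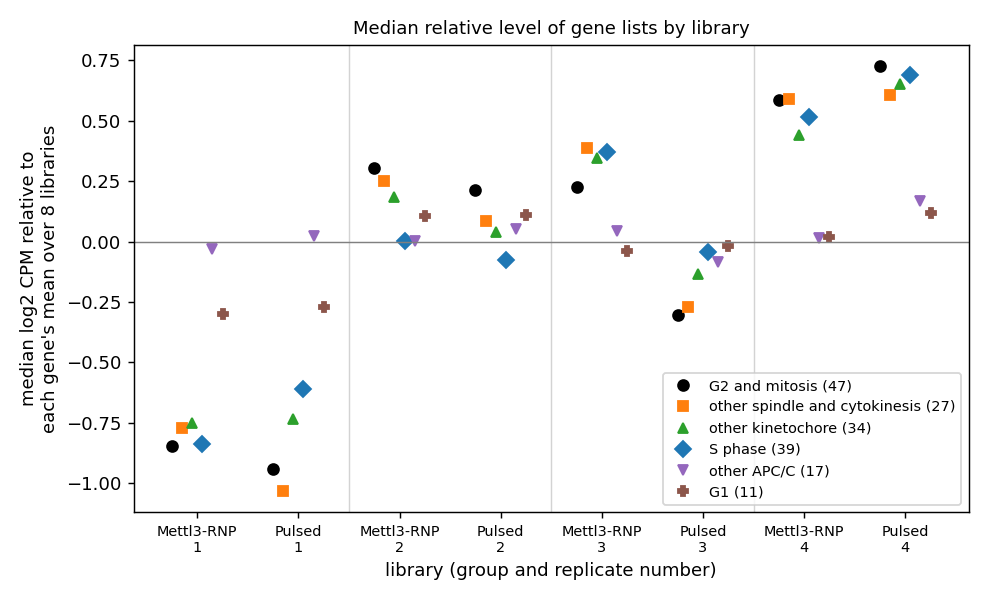
Median over the genes of each list of log2 CPM relative to the gene's mean over 8 libraries, by library; the number of tested genes is in brackets. The 47 members, other spindle, other kinetochore and S phase genes are lowest in replicate 1 and highest in replicate 4, and other APC/C and G1 genes stay within 0.30 of their mean.

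The libraries of replicates 3 and 4 differed in other ways that moved with pair number. Cdkn1a, the CDK inhibitor p21, was at 253, 460.4, 1178 and 181 CPM in Mettl3-RNP replicates 1 to 4 and 273, 421, 1448 and 183 CPM in Pulsed replicates 1 to 4. Both replicate 3 libraries stood above all others, and the fitted group value was -0.08 ± 0.08 (SE, n = 4 pairs) at an edgeR adjusted p of 0.658. Of 20 checkpoint and p53 target genes 1 passed, beside 2.35% higher and 1.39% lower over all tested genes, which is no result about the list. It was Gdf15 (1.63, edgeR adjusted p 0.0374), a stress-induced secreted factor, which had 0.15 without replicate 2. Immediate early genes (14 genes such as Fos) summed to 25724 and 22371 CPM in the 2 libraries of replicate 3 and to 778 and 607 CPM in those of replicate 4. Their part in the members' pair 3 and pair 4 differences was not tested.

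The fitted differences were set beside 4 properties of the members. Spearman's rank correlation over the 47 was -0.34 with exon junctions per kb of transcript, 0.22 with transcript length, 0.18 with the longest exon and 0.06 with mean CPM. The first was -0.19 over 12056 tested protein-coding genes. For junctions per kb it was -0.25, -0.28, -0.24 and -0.18 in pairs 1 to 4, and -0.30 to -0.32 without each replicate number in turn. The 15 members with the fewest junctions per kb (Mki67, Foxm1 and Cenpf among them) had a median of 0.19, with 6 higher in all pairs and 13 above 0, against 0.06, 2 and 11 for the 15 with the most (Cenpe and Kif2c being the 2). The 17 between had 0.09, 1 and 12. Tested protein-coding genes within the same limits also had falling medians, 0.02 (5360 genes), -0.03 (2707) and -0.07 (1128) from fewest to most. Over all tested genes 15.7% were higher in all pairs, and 7443 of 14942 were above 0. Bub3, with the fewest of all (0.82 per kb), had the lowest value of the 47, -0.14, and Ccna2 (-0.10) and Cdk1 (0.07) were also among the 15 with the fewest. All points share the same 8 libraries, and the description was chosen after the values had been seen. Members with a TTTGAA within 50 bases of the start had a median fold between replicate numbers of 3.10 (25 members), and the 14 without one had 3.04. Their median fitted values were 0.07 and 0.19, with 1 of 25 and 5 of 14 higher in all pairs, beside 15.7% of all tested genes. Foxm1, Tpx2 and Incenp, also higher in all pairs, had no window and are in neither group. Ckap2, Kif2c and Mki67, counted among the 14, hold a TTTGAA farther upstream. The split is a description with no test.

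Some levels may hold reads of other genes. Exons of 24 members overlap a gene on the other strand, and the strand setting of the counting is not given in the sources used here. Exons of Foxm1, Top2a, Ncapd2 and Kif20b overlap those of another gene on the same strand. Transcripts of 5 members (Ccnb1, Mad2l1, Ndc80, Nek2 and Racgap1) match those of another gene over at least 300 bases at 95% identity or more. The 4 Ccnb1 copies reached 0.0855 CPM at most, and 2700099C18Rik, which resembles Ndc80, reached 11.2 CPM.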

How the data were processed

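Per the labels, the authors checked reads with FastQC 0.11.9, aligned them to GRCm39 with HISAT2 2.2.1 and used featureCounts 2.0.1 to count them by Ensembl gene, and the deposited values are whole-number counts for each of the 8 libraries. Libraries were made from poly-A RNA with the Tecan Revelo mRNA kit. The study's methods name a batch correction, which the deposited counts do not show. No column of another series was present (0).

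Symbols and positions came from GENCODE mouse release 39. Genes were filtered with filterByExpr and scaled by TMM, and edgeR 4.0.16 (R 4.3.3) fitted group and replicate number as a block with the quasi-likelihood test, adjusting p over 14942 genes (Benjamini-Hochberg). Same-numbered libraries deviated together (correlations of 0.825, 0.489, 0.879 and 0.765 over 11985 genes, at most 0.183 between different numbers), and the design text names 4 mice as their source. CPM used TMM-scaled library sizes. Pair differences used a prior count of 2. Intervals are 95% intervals of the fit. DESeq2 1.42.0, limma 3.58.1, other scalings, filters, a fit without the block and leaving out each replicate number were alternatives.

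The members and lists were chosen with earlier results of these data known. Named in full were the 5 highest and 5 lowest fitted members, with Cdk1, Ccnb1, Plk1, Aurkb, Bub1b, Top2a, Mki67 and Foxm1, and genes of other lists past an adjusted p of 0.05, with Cdkn1a; Tpx2, Incenp and Mybl2 were added after their values were seen. A gene's sign change counted as a reversal only where it moved by at least the SE. The tests of replicate number, the promoter letters and the gene structure were added after the data were seen.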

Additional observations from a re-analysis of the deposited data

Results flagged for a closer look

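Among 102 groups of 4 values, 4 held a library far from the other 3 by Dixon's criterion, where chance gives about 1 in 20, or 5.1. The Mettl3-RNP library of replicate 1 was low for Cdca8, a subunit of the chromosomal passenger complex (16.5 CPM against 40.5 to 43.7 CPM in the other 3), and for Mad2l1, a checkpoint protein (21.9 CPM against 49.3 to 53.3 CPM). The Pulsed library of replicate 3 was low for Mettl3 (11.2 CPM against 24.5 to 26.5 CPM) and high for the summed immediate early genes (22371 CPM against 607 to 4326 CPM).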

How the results depend on the processing

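The count of members past an adjusted p of 0.05 was 0 in the edgeR fit and became 4 with DESeq2, 1 with limma-voom, 3 with every gene that had a count and 3 with at least 10 counts in every sample; the cause was not tested. With each replicate number left out it was 0. The count that passed 0.05 and also changed by 1.5-fold or more was 0 under each alternative run, and with 1.2-fold in place of 1.5 it was 0 in the reported edgeR fit. Members with a fitted value above 0 numbered 20 to 45 of 47 with one replicate number left out, and 32 to 40 otherwise. The median log2 fold change was -0.03 to 0.22 in those fits, the lowest without replicate 3. Without the replicate block, the pairing was ignored and the common biological coefficient of variation was 0.407 instead of 0.159; the median was 0.10, no member passed, and Mettl3 (-1.31) had an edgeR adjusted p of 0.744. Anapc15, Cenpb, Mis12, Cdca5, E2f2 and Gdf15 also lost their calls without it, and no call of a member changed. Leaving out replicate 3 or 4 turned the sign of 8 of the members given in full, none past an adjusted p of 0.05, with Ccna2 (0.018 without replicate 4) moving by less than its SE. For the other 7 the lowest values, all without replicate 3, and the highest, without replicate 4, were -0.13 and 0.16 for Cdk1, -0.088 and 0.41 for Ccnb1, -0.0010 and 0.25 for Aurkb, -0.074 and 0.17 for Bub1b, -0.049 and 0.11 for Top2a, -0.16 and 0.018 for Prc1, and -0.26 and 0.045 for Ttk. Mettl3 kept its direction and call with each number left out (-1.42 to -1.22). The smallest count of a member in a library was 112. Poly-A counts of a culture give neither the share of cells in mitosis nor protein levels.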
